A study of Gallus gallus with 8 samples.

Results

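The miR-15/16 and miR-103/miR-107 microRNAs were described in ectoderm dissected from the frontonasal ectodermal zone (FEZ) of chick embryos, which helps to pattern the upper jaw. The members were selected by the number in their name, which had to be that of miR-15, miR-16, miR-103 or miR-107, with any letter, copy number or arm. This gave 15 of the 994 features in the deposited table, 10 of them miR-15 or miR-16 and 5 miR-103 or miR-107. The group was put forward with its values at both stages already known. All differences between the stages below are therefore a description of the members and carry no test of their own.

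MicroRNAs are cut from a hairpin precursor, and of its arms the guide strand is loaded into an Argonaute protein, while the passenger strand is mostly degraded. The guide pairs with target mRNAs through its seed, a short stretch near its 5' end. The seeds of miR-15/16 and of miR-103/miR-107 carry the same core, shifted by a base along the guide, so their target sets overlap in part. In mammals, miR-15 and miR-16 restrain the cell cycle through cyclins and cyclin-dependent kinases and lower the survival protein BCL2. miR-103 and miR-107 lie in introns of pantothenate kinase genes, which make coenzyme A, and in mammals they target Dicer and regulators of insulin signalling.

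The samples were pools of 2 untreated Rhode Island Red chick embryos each. HH22 (72 h of incubation, after the onset of SHH expression) and HH18 (48 h, before it) had 4 libraries each, here called replicates 1 to 4 and 5 to 8. The series was made to look for microRNAs linked to Sonic hedgehog (SHH) signalling in upper jaw development. The labels do not say that the pools came from separate incubations, so the spread between libraries may be partly technical. The HH22 libraries held 46912793 to 88471588 reads and the HH18 libraries 6276121 to 31318393. These ranges do not overlap, so depth and stage cannot be told apart. Values are normalized counts, that is, reads divided by the library's size factor. Epithelial microRNAs were found under 5 of 7 names (miR-200c and miR-141 were not analysed here), with summed levels of 454127 to 612969 normalized counts at HH22 and 264084 to 375690 at HH18. Their log2 fold changes of HH22 over HH18 ranged from 1.69 (miR-203a) to -1.18 (miR-200b-5p). miR-205a had 1.09 and miR-200b-3p 0.13. Mesenchymal microRNAs were found under 3 of 5 names (not miR-143 or miR-145), with 40465 to 44706 at HH22 and 25750 to 29651 at HH18. Blood and endothelial microRNAs were found under 5 of 6 names (not miR-486), with 306 to 2084 at HH22 and 233 to 14371 at HH18, the highest in HH18 replicate 5. The neural miR-9 and miR-124 summed to 8165 to 9723 at HH22 and 16087 to 24334 at HH18. Most abundant among them was miR-9-5p, with a log2 fold change of -1.20. The scarcer miR-124a-3p (0.98, SE 1.53) and miR-124c-3p (-0.55, SE 1.64) differed in sign and by less than their standard errors. In such tissue pools, fewer cells of a type and less RNA per cell cannot be told apart, and the part of these lists in the results below was not tested.

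The genes of these microRNAs form pairs and host-gene links that the names do not show. In the RefSeq annotation of the GRCg7b assembly, used only for names and order, all 9 hairpins were found. MIR15A and MIR16-1, MIR15B and MIR16-2, and MIR15C and MIR16C are adjacent, with 0 genes between the members of each pair. MIR15B and MIR16-2 overlap SMC4, a condensin subunit gene, and MIR15A and MIR16-1 overlap a long non-coding RNA gene. MIR15C and MIR16C overlap an uncharacterised protein-coding gene, LOC101749419. MIR103A1, MIR103A2 and MIR107 overlap the pantothenate kinase genes PANK3, PANK2 and PANK1. The feature miR-16-5p can come from MIR16-1 or MIR16-2, and miR-103-3p from MIR103A1 or MIR103A2. Similar mature sequences, such as miR-16-5p and miR-16c-5p or miR-103-3p and miR-107-3p, can also share estimated reads, so the division between them is uncertain and sums are given beside single features.

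Together the 15 features took 0.121% ± 0.014 of the reads at HH22 and 0.0995% ± 0.014 at HH18 (SD, n = 4 each). The guide arms of miR-15/16 took 0.0547% ± 0.010 at HH22 and 0.0459% ± 0.0070 at HH18. Those of miR-103/miR-107 took 0.0653% ± 0.0064 at HH22 and 0.0525% ± 0.0083 at HH18 (SD, n = 4 each). By mean normalized count over the 8 libraries, miR-103-3p ranked 28 among all features, miR-16c-5p 37, miR-16-5p 41 and miR-15c-5p 74. miR-107-3p ranked 94, miR-15a 122, miR-15b-5p 125 and the passenger feature miR-103-2-5p 140. Mature microRNAs are of like length, so reads were compared between features without a length correction, but ligation in library making favours some sequences, and its part in this order was not tested. Neighbours in the order were compared within libraries by an exact two-sided sign-flip permutation test, adjusted over the 7 pairs by Benjamini-Hochberg. The order and the pairs came from the same 8 libraries, so these p-values describe the order and are no independent support for it. miR-103-3p exceeded miR-16c-5p in 8 of 8 libraries, by a mean of 1.27 ± 0.32 on the log2(normalized count + 1) scale (SD over 8 libraries, exact permutation adjusted p = 0.0182). miR-16-5p exceeded miR-15c-5p in 8 of 8, by 2.17 ± 0.73 (exact permutation adjusted p = 0.0182). miR-15c-5p exceeded miR-107-3p in 7 of 8, by 1.06 ± 0.75 (exact permutation adjusted p = 0.0273), and miR-107-3p exceeded miR-15a in 8 of 8, by 1.94 ± 2.68 (exact permutation adjusted p = 0.0182). The miR-107-3p difference was 1.01 ± 0.49 without HH18 replicate 5, where miR-15a was at 0. miR-15c-5p over miR-107-3p no longer passed without any 1 of HH22 replicates 1 to 4 (1.10, 0.97, 1.03 and 1.06) or HH18 replicates 5, 7 and 8 (1.11, 1.10 and 0.86), with 7 libraries left. The other 3 neighbouring pairs did not pass an adjusted p of 0.05 by this test. They were miR-16c-5p over miR-16-5p (0.27 ± 0.57, exact permutation adjusted p = 0.306), miR-15a and miR-15b-5p (-0.76 ± 3.22, exact permutation adjusted p = 0.945) and miR-15b-5p over miR-103-2-5p (0.34 ± 0.74, exact permutation adjusted p = 0.310). Without HH18 replicate 5, miR-15a stood 0.37 ± 0.50 above miR-15b-5p, and the differences of the other 2 pairs were 0.43 ± 0.38 and 0.12 ± 0.45.

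**Figure D1:**
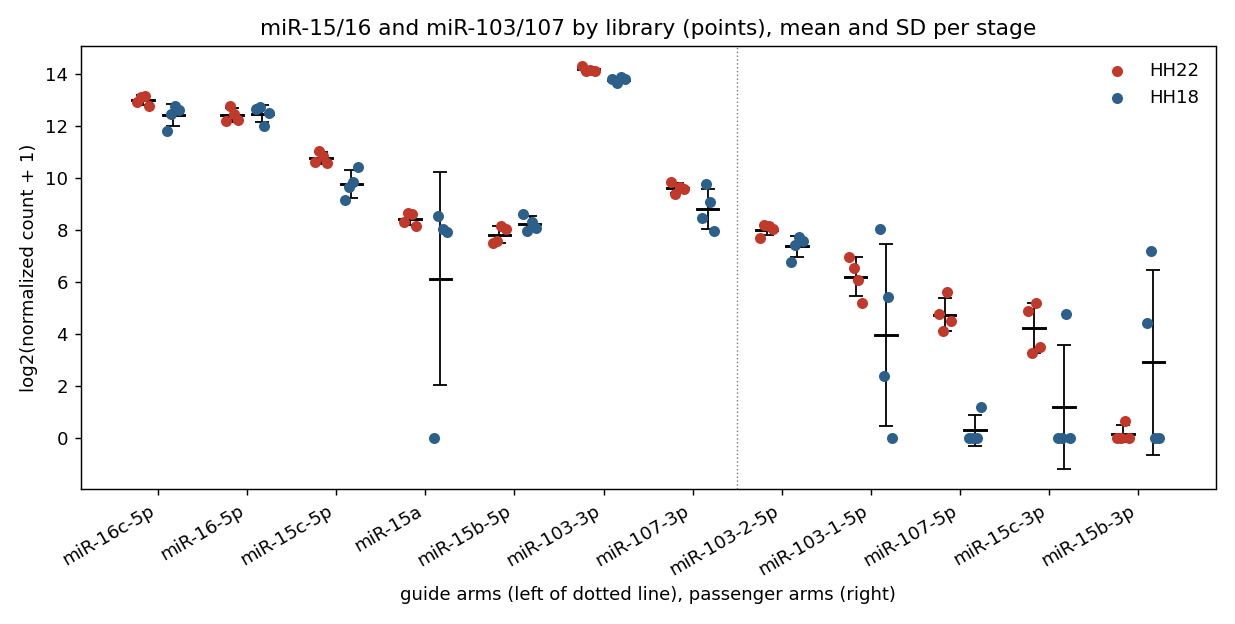
Level of each member with reads in more than 1 library, as log2(normalized count + 1) on the vertical axis. Points are the 4 HH22 libraries (left, red) and the 4 HH18 libraries (right, blue), with the mean and SD of the log2 values in black. miR-103-3p is highest in both stages, miR-15a is at 0 in HH18 replicate 5 only, and miR-107-5p, a passenger arm, has reads in 4 HH22 libraries and 1 HH18 library.

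By normalized count, the guide arms of the adjacent miR-16c and miR-15c were higher in every HH22 library than in any HH18 library. Of all tested features, 20.2% had stages that did not overlap, whichever was higher, and the median log2 fold change was 0.38. In RPM (reads scaled to the library's total, with no size factor) the separation held for miR-15c-5p but not for miR-16c-5p. miR-16c-5p, a paralog of miR-16, had 7831, 8911, 9280 and 7116 normalized counts in HH22 replicates 1 to 4, against 3652, 5637, 7029 and 6390 in HH18 replicates 5 to 8. The lowest HH22 library stood just above the highest HH18 library, and the log2 fold change was 0.58 (SE 0.20). It was 0.38 without HH18 replicate 5, 0.30 without HH18 replicates 5 and 6, and 0.11 scaled without the 5 most abundant features. miR-16c-5p had 264, 303, 335 and 218 RPM at HH22, against 124.2, 215, 281 and 193 at HH18, where replicate 7 exceeded HH22 replicates 1 and 4. miR-15c-5p had 1558, 2139, 1865 and 1538 normalized counts at HH22, against 570, 815, 927 and 1372 at HH18. Its log2 fold change was 1.00 (SE 0.27), and 0.64 without HH18 replicates 5 and 6. Within the HH18 libraries, replicate 5 was lowest for both features.

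The levels of the other miR-15/16 guides overlapped between the stages. miR-16-5p had 4713, 7030, 5602 and 4873 normalized counts at HH22, against 6529, 6770, 4119 and 5773 at HH18. Its stages overlapped almost wholly, with a log2 fold change of -0.05 (SE 0.19). miR-15b-5p, whose gene is next to MIR16-2, had 181, 191, 289 and 261 at HH22, against 395, 247, 320 and 271 at HH18, also overlapping (log2 fold change -0.42, SE 0.35). miR-15a, whose gene is next to MIR16-1, had 315, 401, 391 and 288 at HH22, against 0, 376, 262 and 241 at HH18. The zero stands in HH18 replicate 5, where a floor of 3 reads is 6.93 normalized counts and where the other miR-15/16 guide arms had 171 to 2828 reads. The log2 fold change of miR-15a was 2.31 (SE 1.58) with that library and 0.26 without it.

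The sum of miR-16-5p and miR-16c-5p does not depend on how reads were divided between them. The sum was 12544, 15941, 14882 and 11989 normalized counts at HH22, against 10181, 12406, 11148 and 12163 at HH18, and the stages overlapped. Among the HH18 libraries its coefficient of variation was 8.89%, against 20.6% for miR-16-5p and 25.8% for miR-16c-5p alone. At HH22 the sum varied by 13.6%, miR-16-5p by 19.0% and miR-16c-5p by 11.98%. Within the sum, the share of miR-16c-5p was 62.4%, 55.9%, 62.4% and 59.4% at HH22, against 35.9%, 45.4%, 63.1% and 52.5% at HH18. Wilson 95% intervals around these shares reached at most 1.79 percentage points to a side, for counting error only. The miR-16c share was lowest in HH18 replicate 5. That of HH18 replicate 7 lay close to those of HH22 replicates 1 and 3, with overlapping intervals. Of the miR-15 guide arms, miR-15c-5p made up 75.9%, 78.3%, 73.3% and 73.7% at HH22, against 59.1%, 56.7%, 61.4% and 72.8% at HH18, with no overlap (intervals at most 5.21 points to a side). The nearest libraries, HH22 replicate 3 (72.0% to 74.6%) and HH18 replicate 8 (70.5% to 75.0%), had overlapping intervals. HH18 replicate 5 also held 14371 normalized counts of blood and endothelial microRNAs, against 233 to 2041 in HH18 replicates 6 to 8, and this was not tested as a source of its low miR-16c share.

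**Figure D2:**
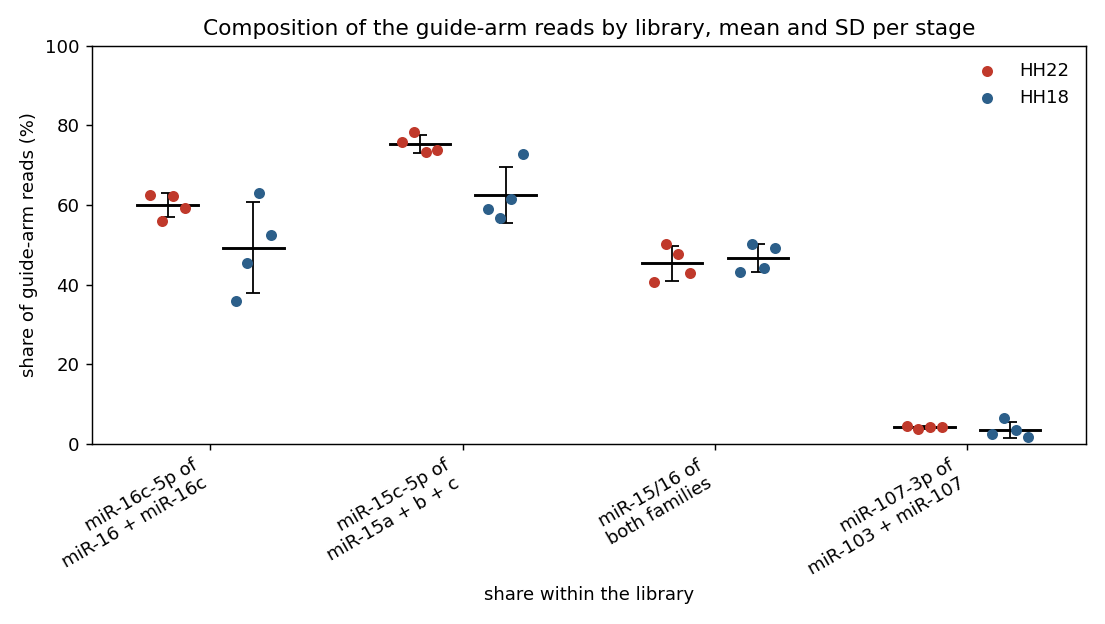
Share of guide-arm reads (%, vertical axis) within each library for miR-16c-5p, miR-15c-5p, the miR-15/16 family and miR-107-3p. Points are the 4 HH22 (left, red) and 4 HH18 (right, blue) libraries, with the mean and SD. The miR-16c-5p share spans 55.9% to 62.4% at HH22 and 35.9% to 63.1% at HH18, while the miR-15/16 share of both families spans 40.7% to 50.1% at HH22 and 43.0% to 50.3% at HH18.

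In the second family, nearly all guide reads belonged to miR-103-3p. It had 20375, 17903, 18302 and 18022 normalized counts at HH22, against 14401, 12808, 15416 and 14314 at HH18. These values did not overlap, and the log2 fold change of 0.39 (SE 0.11) was close to the median of all tested features, 0.38. In RPM the stages overlapped, with 552 to 686 at HH22 and 432 to 616 at HH18. miR-107-3p had 918, 678, 804 and 765 at HH22, against 356, 870, 544 and 251 at HH18. Its HH22 libraries lay close together, whereas the HH18 libraries spread more widely and overlapped them through HH18 replicate 6. The log2 fold change was 0.79 (SE 0.37), with 1.11 without that library, 0.51 without HH18 replicate 8 and 0.33 scaled without the 5 most abundant features. miR-107-3p made up 4.06% ± 0.29 of the guide reads of miR-103-3p and miR-107-3p at HH22 and 3.48% ± 2.04 at HH18 (SD, n = 4 each).

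Summed over each family, the normalized counts of the guide arms did not overlap between the stages, but the miR-15/16 libraries nearly touched, at 14076 for the lowest HH22 library and 14047 for the highest HH18 library. In RPM both sums overlapped. The miR-15/16 sum was then 431 to 634 at HH22 and 379 to 528 at HH18, and the miR-103/miR-107 sum 575 to 717 at HH22 and 439 to 638 at HH18. The miR-15/16 sum averaged 16194 ± 2213 normalized counts at HH22 and 12924 ± 1334 at HH18 (SD, n = 4 each; log2 fold change 0.32, SE 0.13). The miR-103/miR-107 sum averaged 19442 ± 1253 at HH22 and 14740 ± 939.5 at HH18 (SD, n = 4 each; log2 fold change 0.40, SE 0.10). Both log2 fold changes lay close to the median of all tested features, 0.38, and 20.2% of all tested features did not overlap between the stages. The ratio of miR-103/miR-107 to miR-15/16 guide reads, which needs no scaling between libraries, was 1.22 ± 0.21 at HH22 and 1.15 ± 0.17 at HH18 (SD, n = 4 each). It ranged from 0.995 to 1.46 at HH22 and from 0.988 to 1.32 at HH18. The miR-15/16 share of both sums was 45.3% ± 4.3 at HH22 and 46.7% ± 3.6 at HH18 (SD, n = 4 each).

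Of the 15 members 11 passed the filter of at least 1 normalized count in at least 4 libraries, 7 of them guide and 4 passenger features. miR-107-5p and miR-15c-3p passed through HH22, where they were high, with reads in 4 HH22 libraries and 1 HH18 library each. limma-trend with Benjamini-Hochberg adjustment over all 356 tested features called 3 of the 11 higher at HH22 (miR-15c-5p, miR-103-3p and miR-107-5p) and 0 lower, at an adjusted p under 0.05. Over all tested features it called 14.6%, with 9.83% higher and 4.78% lower. The stages did not overlap for 4 of the 11 members, the same 3 and miR-16c-5p, and for 20.2% of all tested features. In RPM, miR-15c-5p and miR-107-5p alone of these 4 did not overlap. The 20.2% is by normalized count, and the share over all features in RPM is not given here. The median log2 fold change was 0.79 over the 11 and 0.38 over all tested features. Above 0 were 9 of the 11 members and 228 of all 356 tested features. The 11 include miR-107-5p and miR-15c-3p, which passed the filter through HH22. Since the members were proposed with these values known, nothing is read from the counts. With no filter, 0 of 14 members were called, and the share of all features called in that fit is not given here.

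The size and in places the sign of these differences depended on how libraries were scaled. Scaled by total reads without the 5 most abundant features, the median of all tested features moved by -0.42 to -0.04, and that of the 11 members to 0.33. The log2 fold change of miR-103-3p was then -0.076 and that of miR-16-5p -0.52, while miR-15c-5p kept 0.54 and miR-107-5p 4.25. miR-15c-5p and miR-103-3p were no longer called under this scaling, and miR-107-5p was. Calls also changed when single libraries were left out. The lost calls kept log2 fold changes near those of the full fit, 0.39 for miR-103-3p and 1.00 for miR-15c-5p. miR-103-3p was lost without any 1 of HH22 replicates 1 to 4 (log2 fold changes 0.35, 0.41, 0.40 and 0.41) or HH18 replicates 6 and 8 (0.34 and 0.39). miR-15c-5p was lost without any 1 of HH22 replicates 1 to 4 (1.06, 0.91, 0.97 and 1.07) or HH18 replicate 6 (0.97). Without HH18 replicate 7 the calls numbered 5, with miR-16c-5p (0.70) and miR-15c-3p (4.22) added. That library held all 33 HH18 reads of miR-15c-3p, which passed the filter through HH22. Leaving it out sets miR-15c-3p to 0 at HH18, so nothing is read from that added call. Without HH18 replicate 6 the calls numbered 2, since miR-107-3p was then called and miR-15c-5p and miR-103-3p were lost. The share of all features called in these fits is not given here.

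**Figure D3:**
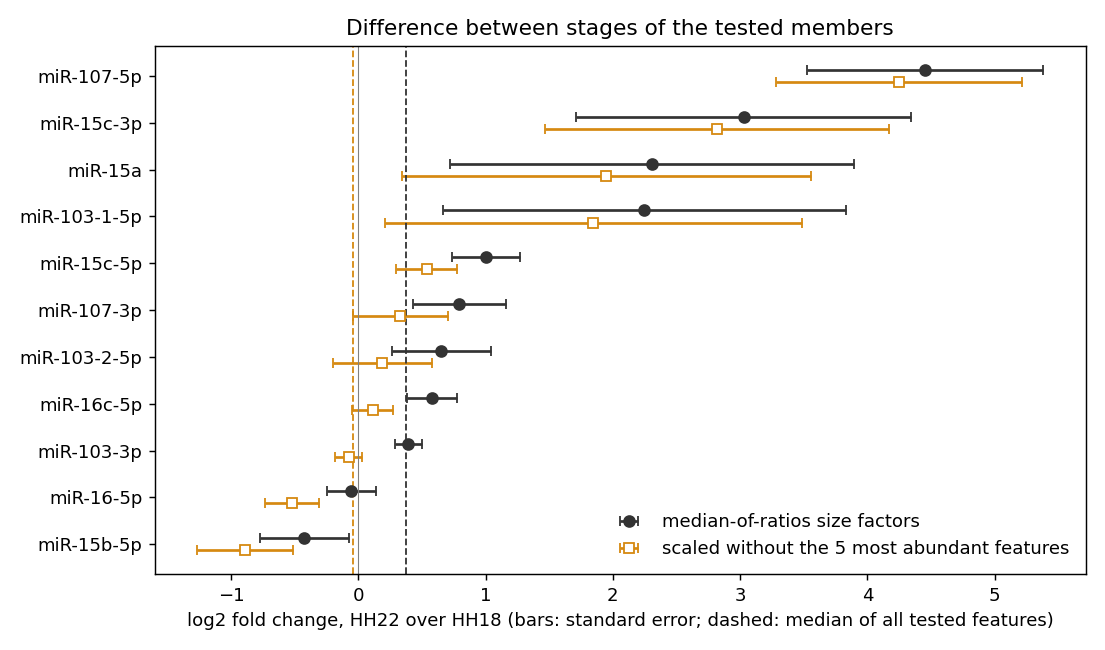
log2 fold change of HH22 over HH18 (horizontal axis) for the 11 tested members, with bars of 1 standard error. Dark circles use the median-of-ratios size factors and open squares total reads without the 5 most abundant features, and the dashed lines are the median of all tested features under each, 0.38 and -0.04. The members lie in the same order under both scalings, and miR-103-3p lies close to the median in each.

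Passenger arms were scarce next to their guides. Of the 8 passenger features 4 were tested, 3 more had reads in 1 to 3 libraries, and miR-16-1-3p had 0 reads in all 8. For 6 hairpin names with both arms in the table, the guide arm (5p for miR-15/16, 3p for miR-103/miR-107) exceeded the passenger arm in 8 of 8 libraries. Each of the 6 had an exact two-sided sign-flip permutation adjusted p = 0.00781, the smallest that 8 libraries can give. The mean excess on the log2(normalized count + 1) scale was 5.84 ± 0.32 for miR-103, 6.70 ± 2.16 for miR-107 and 6.501 ± 2.67 for miR-15b (SD over 8 libraries). It was 7.57 ± 2.02 for miR-15c, 12.1 ± 1.2 for miR-16 and 12.2 ± 1.4 for miR-16c. With a pseudocount of 10 the excess was 5.79 for miR-103, 4.97 for miR-107 and 4.06 for miR-15b. For miR-15c, miR-16 and miR-16c it was then 5.98, 9.03 and 9.20. In libraries with 0 passenger reads the excess is set by the guide level and the pseudocount, so its sizes do not rank the hairpins. miR-15a has no arm in its name, was put with the guides, and has no partner feature here.

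Summed over each family, the passenger arms of miR-103/miR-107 were the more abundant, with a mean of 308 normalized counts against 38.1 for miR-15/16. Most of this came from miR-103-2-5p and miR-103-1-5p, while miR-107-5p averaged 14.2, below the 21.0 of miR-15b-3p. miR-103-2-5p had 208, 289, 287 and 262 normalized counts at HH22, against 109, 171, 210.2 and 188 at HH18, overlapping in 1 library of each stage (log2 fold change 0.65, SE 0.39). miR-103-1-5p, from the other copy, had 123, 92.9, 67.6 and 35.9 at HH22, against 261, 4.18, 41.6 and 0 at HH18, so that HH18 held both the highest and the lowest library. HH18 replicate 5, the highest, drew 70.6% of its miR-103 passenger reads from this copy, against 0% to 16.5% in HH18 replicates 6 to 8 and 12.04% to 37.1% at HH22. The passenger share of all miR-103/miR-107 reads was 1.87% ± 0.24 at HH22 and 1.64% ± 0.55 at HH18 (SD, n = 4 each).

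Among the 11 tested members, miR-107-5p, which passed the filter through its HH22 libraries, had the largest fitted log2 fold change. It had 26.2, 16.3, 48.3 and 21.5 normalized counts at HH22 (78, 26, 85 and 33 reads), against 0, 0, 0 and 1.27 at HH18, the last being 1 read in replicate 8. The log2 fold change was 4.45 (SE 0.93), a size that depends on the pseudocount of 1. It was 1.82 with a pseudocount of 10, and the difference on the deposited log2 values was 0.37, below the 0.67 of miR-15c-5p. Summed over each stage and divided by the summed size factors of its libraries, 222 reads at HH22 and 1 read at HH18 gave a ratio of 76.5. The exact 95% binomial interval of this ratio was 13.6 to 3034, for counting error only. It leaves out the spread between libraries. The feature was singled out after its values were seen, so the interval is no test of the stages. Thinned to the 6276121 reads of the shallowest library, the HH22 libraries kept 9, 2, 6 and 2 reads and the HH18 libraries 0 each. The floor of 3 reads was 6.93, 12.5, 2.40 and 3.82 normalized counts in HH18 replicates 5 to 8, next to 16.3 in the lowest HH22 library. Depth and stage cannot be told apart here, and the part of depth in this difference was not tested. The guide from the same hairpin, miR-107-3p, differed by far less (log2 fold change 0.79), and the passenger share of miR-107 was 3.35% of 6626 reads at HH22 and 0.0806% of 1241 reads at HH18.

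The passenger arms of miR-15/16 were scarce, and of the 4 with reads miR-15c-3p alone was seen in every HH22 library. miR-15c-3p had 28.5, 8.79, 35.8 and 10.4 normalized counts at HH22, against 0, 0, 26.4 and 0 at HH18, where replicate 7 held all 33 reads (log2 fold change 3.03, SE 1.32). Thinned to equal depth it had 3, 4, 2 and 0 reads at HH22, against 0, 0, 7 and 0 at HH18, and the log2 fold change was 1.67. miR-15b-3p ran the other way, with 0, 0, 0.568 and 0 normalized counts at HH22, against 20.8, 146, 0 and 0 at HH18. Its reads at HH22 summed to 1 and at HH18 to 44, of which 35 were in replicate 6, and it passed no filter. In that library miR-15b-3p made up 37.2% of the 94 miR-15b reads (Wilson 95% interval 28.1% to 47.3%), against 5.00% of 180 in replicate 5. miR-16-2-3p (21 reads) and miR-16c-3p (32 reads) were seen in a single HH22 library each. At HH18, 0 passenger reads beside 14136 guide reads of miR-16 allow a ratio of up to 0.0212%, and 0 beside 16746 of miR-16c up to 0.0179%.

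**Figure D4:**
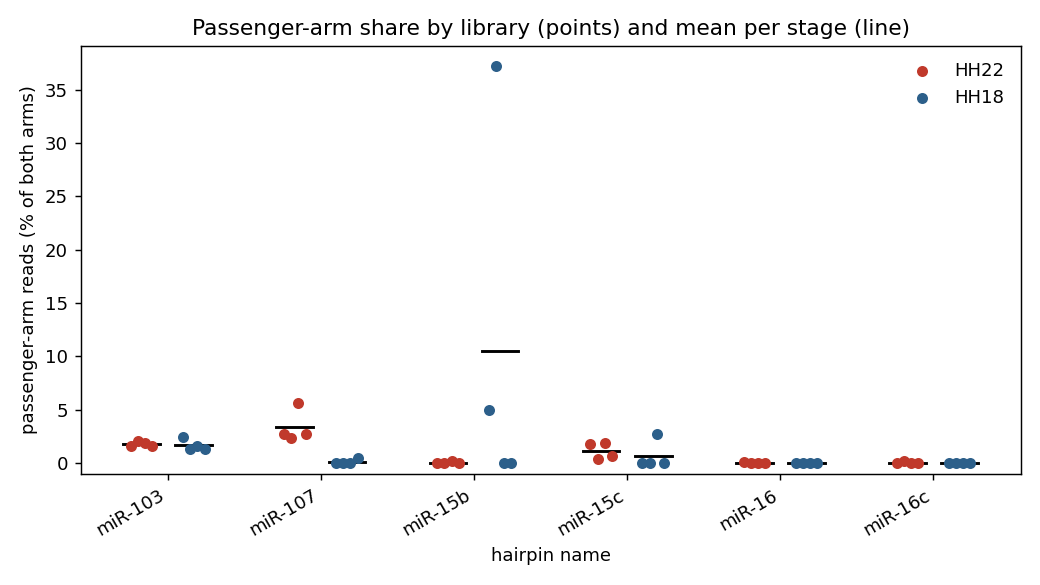
Passenger-arm reads as a percent of both arms (vertical axis) for 6 hairpin names. Points are the 4 HH22 (left, red) and 4 HH18 (right, blue) libraries, and lines are means. miR-107 has 2.35% to 5.67% at HH22 and 0% to 0.505% at HH18, and miR-15b stands at 37.2% in HH18 replicate 6.

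For the most abundant guide of each number, the 3 tested features outside the group with the closest pattern were taken by Pearson's r of log2(normalized count + 1) over the 8 libraries. These values describe 8 libraries that share stage and depth. For miR-16c-5p they were miR-18a-3p (r = 0.93), miR-130a-3p (0.92) and miR-429-3p (0.91). For miR-15c-5p they were the scarce miR-1806 (r = 0.92), miR-30e-5p (0.92) and let-7f-5p (0.91). For miR-103-3p they were miR-181a-5p, miR-33-5p and miR-30a-5p (r = 0.95 for each). For miR-107-3p they were miR-3535 (r = 0.96), miR-2131-5p (0.93) and miR-3594-3p (0.90). Of the other microRNAs known in vertebrates to carry the miR-15/16 seed or one close to it, 6 numbers (miR-195, miR-322, miR-424, miR-497, miR-503 and miR-457) were looked up by name, and 0 were among the features analysed here.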

How the data were processed

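The deposited table holds 1 log2 value per microRNA and library. Per the submitters' processing notes, the tools included kallisto 0.44.0, cutadapt 1.8.1 and bcl2fastq. Their order, the reference and how the authors normalized are not given in the sources used. The lowest value, 8.52, is shared by all libraries, and inverting a closed-form variance-stabilizing transformation from it gave whole multiples of 1 step per library (tolerance 0.001, 100% of 3016 values above 0). The inverse of that step equals the median-of-ratios size factor over 200 features. Multiples are called reads and inverted values normalized counts. Intervals and floors (3 reads) cover counting error only.

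limma-trend (limma 3.58.1, R 4.3.3) was fitted on log2(normalized count + 1), HH22 minus HH18, for features with at least 1 normalized count in at least 4 libraries, with Benjamini-Hochberg adjustment at 0.05. Sums by family and arm replaced the member rows in a second fit. Other steps used Python 3.11.15, scipy 1.17.1 and numpy 2.4.6, and the procedures were tested on simulated data. Members with a mean of at least 100 are given in every library, as are scarcer passenger features singled out after their values were seen. The members and lists were chosen with earlier results of these data known. Alternatives changed the pseudocount, filter, scaling, test, depth or libraries.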

Additional observations from a re-analysis of the deposited data

Results flagged for a closer look

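Within each stage, the highest and lowest of the 4 libraries were compared with the others by Dixon's ratio at its 95% critical value. Of 44 groups of 4 values, 8 were singled out. Where the other libraries of a stage had 0, any single value above 0 is singled out. The usual chance rate of 1 in 20 does not apply to such groups, so nothing is read from the number. Most of the 8 are passenger features near 0 reads.

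miR-103-1-5p stood at 261 normalized counts in HH18 replicate 5, next to 41.6 in the nearest HH18 library. miR-103-3p stood at 20375 in HH22 replicate 1, next to 18302, and its log2 fold change without that library was 0.35. miR-15b-3p stood at 146 in HH18 replicate 6, next to 20.8, and at 0.568 in HH22 replicate 3, where the other HH22 libraries had 0. miR-107-5p stood at 1.27 in HH18 replicate 8 and miR-15c-3p at 26.4 in HH18 replicate 7, the other HH18 libraries having 0. miR-16-2-3p stood at 7.05 in HH22 replicate 1 and miR-16c-3p at 20.1 in HH22 replicate 2, the other HH22 libraries having 0. The cause of these single values was not tested.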

How the results depend on the processing

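Of 11 tested members, 3 were called. The count was 0 of 14 by limma with no filter (4 had an unadjusted p under 0.05, and voom with the filter called 2). It was 1 with scaling by total reads, 1 with scaling without the 5 most abundant features, and 1 to 5 with 1 library left out. The share of all tested features called was 14.6% in the main fit and is not given for the alternatives. Whether the members or all features lost calls is therefore not shown, and nothing is read from these counts. The miR-103/miR-107 guide sum was called at a log2 fold change of 0.40. It was not called with no filter (0.40), scaling by total reads (0.32), voom (0.39) or without HH18 replicates 5 and 6 (0.35), and with 1 library left out it ranged from 0.355 to 0.438 and was called without HH18 replicates 5 or 7 only; in all it was called in 6 of 17 alternatives. Scaled without the 5 most abundant features, that sum turned to -0.067, the miR-15/16 guide sum to -0.15 and miR-103-3p to -0.076. miR-16-5p turned above 0 by voom (2.88e-05), without HH18 replicates 5 and 6 (0.169), and without HH22 replicates 1 or 4 or HH18 replicates 5 or 6; over all single libraries left out it ranged from -0.21 to 0.0291. For 9 members under 17 alternatives, 122 of 153 values kept direction and side of the threshold. A further 21 kept direction but lost a call, 3 gained one and 7 changed sign. Those that changed sign include miR-103-3p scaled without the 5 most abundant features, which also lost its call. The tested miR-15c-3p and miR-103-1-5p are not among the 9. Members not called in the main fit count as unchanged when they keep direction and stay uncalled. Of the 3 called members, miR-107-5p was called in 16 of 17 alternatives, miR-15c-5p in 8 and miR-103-3p in 5. miR-107-5p passed the filter through its HH22 libraries, and the alternative that did not call it was the fit with no filter. Its tally therefore describes the filtered fits and is no support for the difference. The arm differences kept direction in every alternative run, and passed the threshold in all but the HH22 and HH18 libraries taken alone, where 4 libraries allow no exact p below 0.125. The miR-15/16 share moved by less than 1 SD. Leaving out single libraries from the order of levels, and levels in RPM, were added after seeing the data; miR-15a over miR-15b-5p then ranged from -1.01 to 0.37, above 0 without HH18 replicate 5 only. The cause was not tested. No paired analysis was possible because the sample numbers 1 to 8 are all different. Depth limits the passenger arms: the floor of 3 reads was 1.01 to 12.5 normalized counts, highest in HH18 replicate 6.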

Other observations

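The 21 reads of miR-16-2-3p lay in HH22 replicate 1, and the unrelated feature miR-196-1-3p had the same reads in every library. Whether these are the same reads was not tested. No other member with reads shared its values with another feature.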
